A study of Mus musculus with 2 samples.

Results

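The proteasome genes of the mouse small intestine were taken as all protein-coding genes whose symbol begins with Psma to Psmg followed by a number. The rule found 50 genes among 21474 protein-coding genes and 43346 genes in all, and 4 pseudogenes with matching symbols were not members. One symbol, Psmc3ip, belongs to a meiotic recombination factor that is named after a proteasome gene and is not a subunit. Poly(A) RNA was sequenced from the small intestine of 1 female C57BL/6J mouse, an adult aged 10 weeks with no treatment or altered allele in the labels. The tissue is 1 biological replicate with 2 technical libraries, called the first and the second library here, and the second was made in 2015. The labels give a size range of 350 to 450, with no unit, for both libraries. The sources used here do not say whether both came from a single RNA extraction. No value below describes variation between mice, and there is no condition to compare.

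The proteasome is the protease that degrades proteins tagged with ubiquitin. Its barrel-shaped core is built from alpha and beta rings, and the active sites sit on beta subunits encoded by Psmb5 (chymotrypsin-like), Psmb6 (caspase-like) and Psmb7 (trypsin-like). In immune cells, and in other cells exposed to interferon gamma, these are replaced during assembly by Psmb8, Psmb9 and Psmb10, which gives the immunoproteasome, a form known for making peptides that are presented on class I molecules of the major histocompatibility complex. A regulatory particle of ATPases and lid subunits recognises and unfolds the substrate, and other caps such as PA28 and PA200 can open the core in its place.

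Each catalytic beta subunit is made with a leader that is cut off next to the threonine that attacks the peptide bond. The coding sequence from that threonine onward is shown for the 3 constitutive subunits, each followed by its immunoproteasome counterpart, because their expression ratios are compared further on and depend on reads being told apart. The letters are from GENCODE M21 on GRCm38, run 5′ to 3′ along the coding strand over 60 bases, and have the threonine codon in capitals.
Psmb5: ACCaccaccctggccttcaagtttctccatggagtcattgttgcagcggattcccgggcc
Psmb8: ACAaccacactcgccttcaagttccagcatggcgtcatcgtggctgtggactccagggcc
Psmb6: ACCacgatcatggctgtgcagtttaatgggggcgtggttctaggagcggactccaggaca
Psmb9: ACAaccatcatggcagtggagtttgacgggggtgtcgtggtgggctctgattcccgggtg
Psmb7: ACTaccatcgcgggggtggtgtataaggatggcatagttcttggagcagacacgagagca
Psmb10: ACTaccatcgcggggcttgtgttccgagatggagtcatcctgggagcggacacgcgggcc
Psmb8 and Psmb5 were identical at 47 of these 60 bases, Psmb9 and Psmb6 at 41, and Psmb10 and Psmb7 at 43. Over the aligned bases of the coding sequences (704, 644 and 778) identity was 75.6%, 71.3% and 72.0%, and no pair shared a run of 30 bases. Psmb5 lies at chr14:54614119-54618022, Psmb6 at chr11:70525367-70527858 and Psmb7 at chr2:38588036-38644087 (mm10). Psmb8, at chr17:34197721-34201454, and Psmb9, at chr17:34181987-34187764, are neighbours in the major histocompatibility complex, and Psmb10 lies apart from them at chr8:105935735-105938444.

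The members also differ in base composition, which moved with the difference between the libraries. The next set shows 90 bases from the middle of the coding sequence of the 2 members lowest in mean GC content over their transcripts, Psmc6 and Psme4, and of 2 catalytic subunits at the high end, with every G and C in capitals (GENCODE M21, GRCm38, 5′ to 3′ on the coding strand).
Psmc6: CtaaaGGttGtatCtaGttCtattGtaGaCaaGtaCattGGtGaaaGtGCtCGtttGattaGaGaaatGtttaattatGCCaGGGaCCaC
Psme4: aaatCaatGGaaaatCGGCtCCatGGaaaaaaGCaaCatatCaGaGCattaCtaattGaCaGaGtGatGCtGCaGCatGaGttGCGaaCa
Psmb10: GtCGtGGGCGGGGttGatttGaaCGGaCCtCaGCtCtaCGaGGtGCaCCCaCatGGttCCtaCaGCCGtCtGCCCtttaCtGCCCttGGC
Psmb5: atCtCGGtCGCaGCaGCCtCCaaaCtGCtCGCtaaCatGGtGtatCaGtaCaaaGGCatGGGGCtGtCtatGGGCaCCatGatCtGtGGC
G and C made up 36.7% of the window in Psmc6 and 40% in Psme4, against 60% in Psmb10 and 54.4% in Psmb5.

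Depth was 28277875 expected counts in the first library and 24509862 in the second. Expected counts are the authors' estimates of reads per gene, and TPM is their abundance per length, scaled to a common total in each library. RNA encoded by the mitochondrial genome took 49.2% of TPM in the first library and 11.4% in the second, so a TPM of the first library is a share of a smaller nuclear remainder. Ratios between libraries are therefore given on counts scaled by TMM, as log2 of the second over the first library with 0.5 prior counts. Another scaling moves all genes together: by 0.84 (log2) upward with total counts, and by 0.50 downward (a shift of -0.50) with upper quartiles. A gene was called where an exact binomial test passed an adjusted p of 0.05 (Benjamini-Hochberg over all 15194 genes with 20 or more counts) at 2-fold or more, and it is said to be called for the library in which it was higher. With 1 library a side, that test compares these libraries and covers counting error only.

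The small intestine expressed nearly the full set. Of the 50 members, 43 reached 1 TPM in both libraries, 5 in the second library only, and 2 in neither. Summed over members, TPM was 1531 in the first library and 4350 in the second, which is 0.153% and 0.435% of all TPM. As a share of nuclear TPM the values were 0.301% and 0.491%. The TPM of 43 members was higher in the second library and that of 6 in the first. On nuclear TPM 12 members were higher in the first library, and on scaled counts 16 had a log2 ratio under 0. The order of members differed between the libraries (Spearman's rho 0.396 over the 49 members with TPM above 0 in either, across genes that are not independent).

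**Figure D1:**
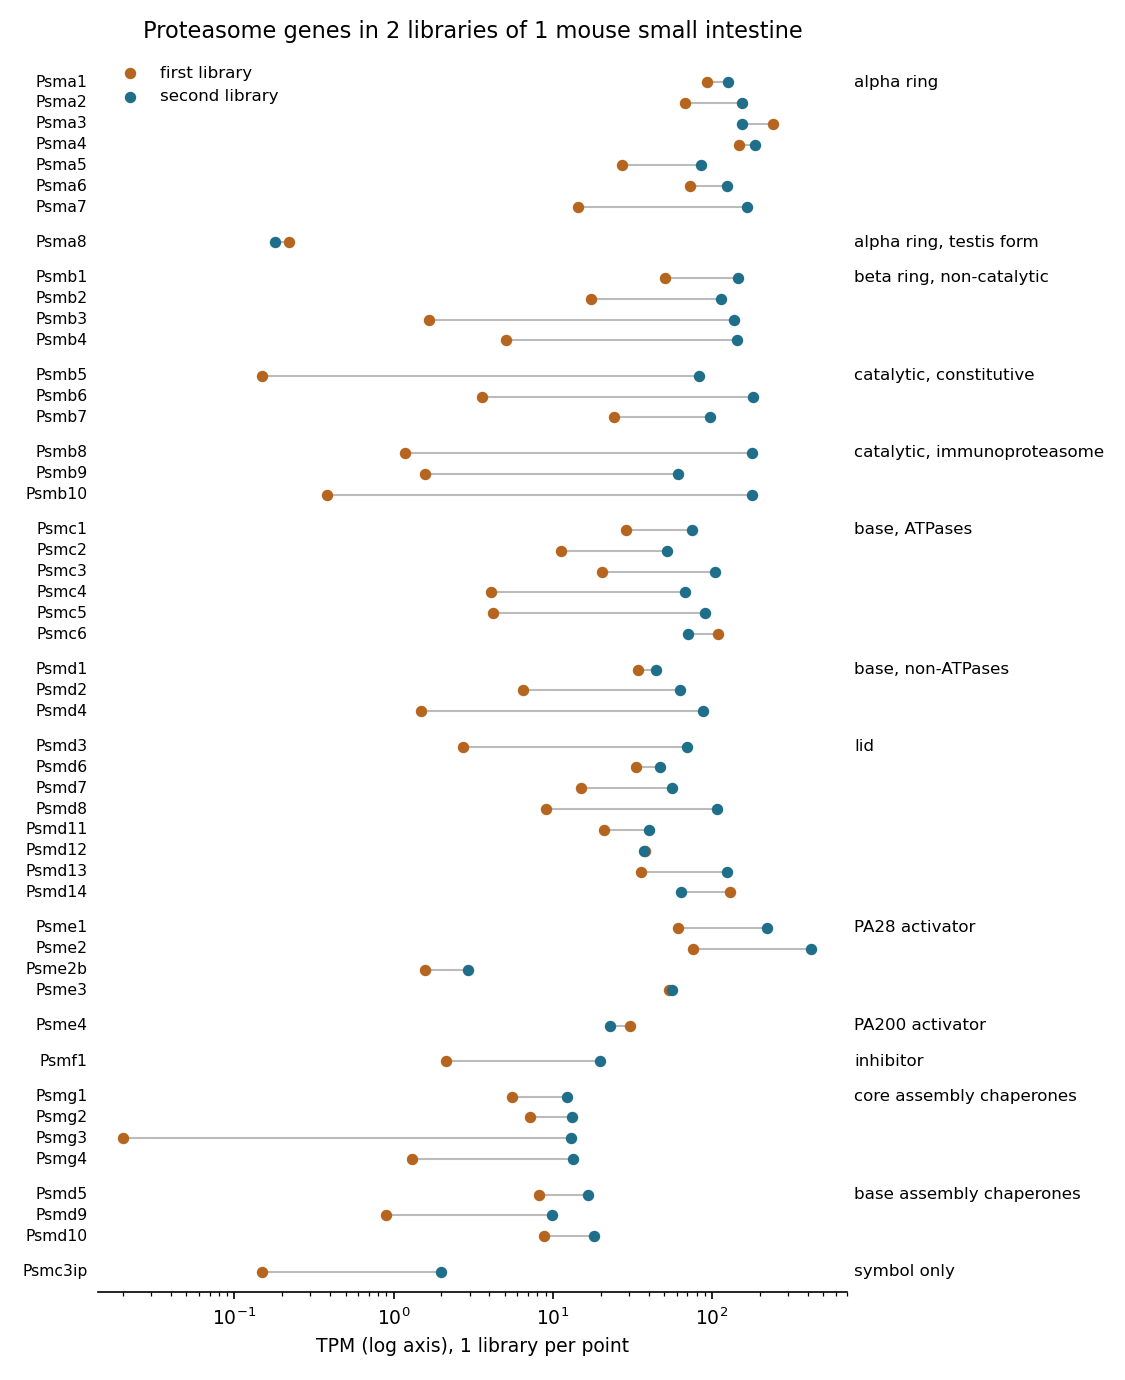
TPM of 49 proteasome genes on a log axis, grouped by role, with 1 point for each library. Psmb11, with 0 counts in both, is not drawn. In the alpha ring the second library runs from 85.1 to 185 TPM and the first from 14.4 to 240 TPM, while the PA28 genes Psme1 to Psme3 go the other way, from 55.9 to 419 TPM in the second and from 53.4 to 75.5 TPM in the first. Coding transcripts alone, not drawn, give 28.9 to 180 and 11.8 to 145 TPM for the alpha ring. They give 54.7 to 366 and 7.97 to 32.4 TPM for Psme1 to Psme3.

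The alpha ring, which frames the gate of the core, has 7 subunits in somatic tissue. Psma3 had the highest mean level, at 240 TPM in the first library and 155 TPM in the second. Coding transcripts held only 47.6 and 28.9 TPM of this, and the rest lay in decay and retained-intron transcripts such as Psma3-207 (52.01% of its TPM in the first library, listed at 0 in the second) and Psma3-201 (47.3% in the second). By coding TPM alone Psma3 had the lowest mean of the ring. Over all transcripts Psma5 had the lowest, at 27.3 and 85.1 TPM. The highest and the lowest subunit of the ring stood 16.6-fold apart in the first library and 2.18-fold apart in the second, or 12.3-fold and 6.24-fold by coding TPM. Psma7 had the highest log2 ratio of the ring, 2.36 ± 0.09 (counting SE), from 275 and 2186 counts, and Psma3 the lowest, -1.47 ± 0.04. Psma7 and Psma3 were the only alpha subunits past 2-fold, in opposite directions. Psma8, the form of the ring made in male germ cells, had 10 and 5 counts (0.22 and 0.18 TPM), and the germ cell markers Ddx4, Sycp3 and Tnp1 were all under 1 TPM.

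The non-catalytic beta subunits showed the contrast between the libraries more strongly. Psmb1 had 50.3 TPM in the first library and 144.5 TPM in the second. Psmb2 had 17.3 and 113 TPM. Psmb3 had 1.68 and 137 TPM, and Psmb4 had 5.09 and 142 TPM. All 4 lay within 1.27-fold of each other in the second library, and 29.9-fold apart in the first. By coding TPM they ran from 101 to 144.5 TPM in the second library and from 0.94 to 50.3 TPM in the first. Psmb2, Psmb3 and Psmb4 were called higher in the second library, with log2 ratios of 2.24 ± 0.11, 4.62 ± 0.23 and 3.61 ± 0.14, while Psmb1, at 0.26, was under 2-fold.

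Apart from Psmb7, the catalytic subunits gave under 4 TPM in the first library, and all 6 gave 60.8 TPM or more in the second. Psmb5 had 3 counts (0.15 TPM) in the first library and 1084 counts (83.0 TPM) in the second. Its log2 ratio was 7.64, with a counting interval from 6.31 to 10.1 (Clopper-Pearson, 95%; exact binomial adjusted p = 8.77e-227). Psmb6 had 3.61 and 180 TPM, from 62 and 2091 counts, with a log2 ratio of 4.43 ± 0.19. Psmb7, the trypsin-like subunit, differed least of the 6, at 24.2 and 96.5 TPM from 509 and 1752 counts, with a log2 ratio of 1.15 ± 0.07 (exact binomial adjusted p = 2.22e-63). Among the immunoproteasome forms, Psmb8 had 1.18 and 177 TPM from 56 and 3110 counts, a log2 ratio of 5.15 ± 0.19. Psmb9 had 1.57 and 60.8 TPM from 21 and 1322 counts, a log2 ratio of 5.31 ± 0.32 (exact binomial adjusted p = 6.47e-248). Psmb10 had 0.38 and 179 TPM from 12 and 3691 counts, a log2 ratio of 7.57 ± 0.42. All 6 genes were called higher in the second library, where 40.2% of all genes tested were. The call remained for each after the GC trend of all genes was removed, where 17.6% of all genes were called. The log2 ratios were then 3.999 for Psmb5, 2.997 for Psmb6, 2.33 for Psmb7, 2.25 for Psmb8, 3.17 for Psmb9 and 3.98 for Psmb10. Psmb11, the catalytic subunit of thymic cortical epithelium, had 0 counts in both libraries, where 3 counts, the limit that 0 allows, correspond to 0.106 and 0.122 CPM (counts of the total, rescaled per library). The thymic epithelial markers Foxn1 and Prss16 were also under 1 TPM in both.

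**Figure D2:**
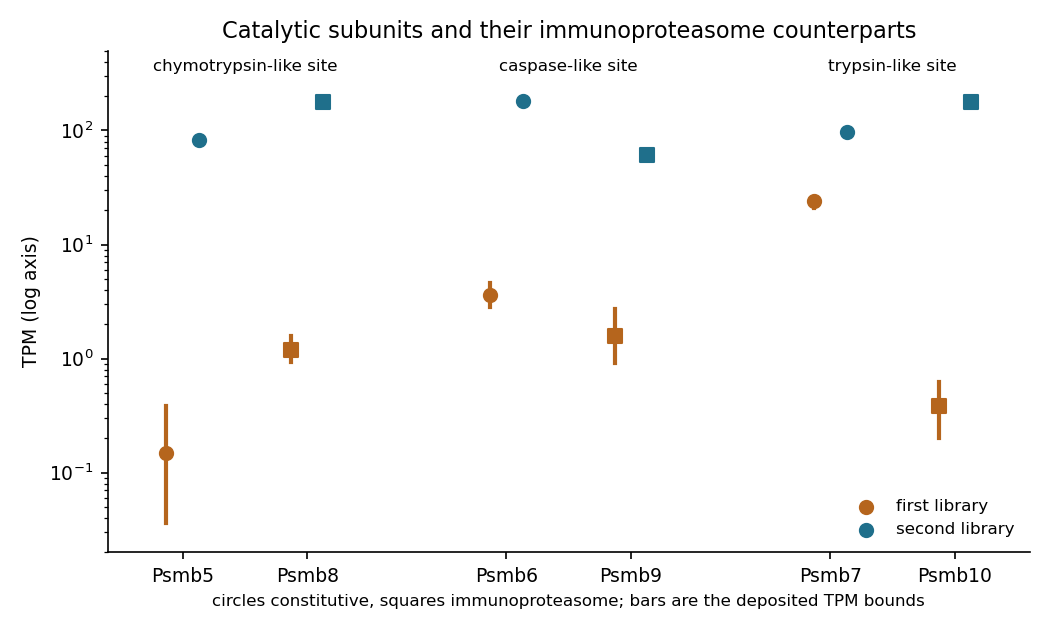
TPM (log axis) of the constitutive catalytic subunits (circles) beside their immunoproteasome counterparts (squares) in the first and the second library. Bars are the TPM bounds in the deposited tables, whose level is not stated, and some second-library values lie just above their upper bound. Psmb8 stands above Psmb5 and Psmb6 above Psmb9 in both libraries, while Psmb7 and Psmb10 change places.

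The ratio of immunoproteasome to constitutive subunit, within a library and per length, differed by active site. At the chymotrypsin-like site Psmb8 exceeded Psmb5 in both libraries, 7.87-fold in the first (counting interval 2.58 to 39.7, resting on 3 counts of Psmb5) and 2.14-fold in the second (1.99 to 2.29). At the caspase-like site the constitutive form was the higher in both, with Psmb9 over Psmb6 at 0.435 (0.251 to 0.723) and 0.338 (0.315 to 0.362). At the trypsin-like site the direction turned. Psmb10 over Psmb7 was 0.0157 (0.00797 to 0.0274) in the first library and 1.86 (1.76 to 1.97) in the second. The sum of the 3 immunoproteasome subunits over the sum of the 3 constitutive ones was thus 0.112 in the first library and 1.16 in the second, or log2 -3.16 and 0.22. The mean over libraries was -1.47 ± 2.39 (SD, n = 2 technical libraries), so the spread between the libraries is larger than the mean. Without the Psmb10 and Psmb7 pair, the log2 of the sums had a mean of -0.30 ± 0.22 (SD), without the Psmb8 and Psmb5 pair -2.02 ± 2.57, and without the Psmb9 and Psmb6 pair -1.49 ± 3.50. Psmb10 and Psmb7 are the pair most unlike in base composition, at 56.5% and 44.7% GC over their annotated transcripts, a difference of 11.8 points, and the other 2 pairs differ by 1.32 and 1.35 points.

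At Psmb6, Psmb7 and Psmb8, much of the first library's signal lay in transcripts that keep an intron. Of Psmb6 TPM, 14.3% fell on the coding transcript Psmb6-201 in the first library and 92.1% in the second, and the retained-intron transcript Psmb6-202 went from 50.3% to 3.93%. The retained-intron transcripts Psmb6-204 and Psmb6-203 held 27.1% and 8.28% in the first library and 2.11% and 1.90% in the second. Of Psmb7 TPM, the coding Psmb7-201 (48.7% GC) held 52.8% and 96.6%, and the rest was the retained-intron Psmb7-202 (40.8% GC). Psmb8 was split in the second library between the coding transcripts Psmb8-203 (64.9%) and Psmb8-201 (31.8%). In the first library Psmb8-203 was listed at 0, and the retained-intron Psmb8-202 held 58.6% against 3.26% in the second. For Psmb9, the short coding transcript Psmb9-202 held 91.5% in the first library on 10.3 expected counts. The longer coding Psmb9-204 held 77.5% in the second after being listed at 0 in the first. The retained-intron transcripts Psmb9-205 and Psmb9-201 held 9.87% and 6.06% in the second library. Psmb5 and Psmb10 each had 1 transcript at 1 TPM or more, Psmb5-201 and Psmb10-201. Counting coding transcripts alone, Psmb9 over Psmb6 became 2.75 in the first library, on 10.3 and 9.27 expected counts, and 0.303 in the second, so this ratio turned in the first library. Psmb8 over Psmb5 was then 3.27 and 2.07, and Psmb10 over Psmb7 0.0298 and 1.92.

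The base of the regulatory particle holds a ring of 6 ATPases that unfold the substrate. Psmc6 had the highest mean level, with 109 TPM in the first library and 70.6 TPM in the second, and the lowest log2 ratio of all members, -1.89 ± 0.04. Psmc2 had the lowest mean, with 11.2 and 52.3 TPM, but by coding TPM Psmc4 had the lowest, at 0.69 and 59.2 TPM. Psmc3 had the highest log2 ratio of the ring, 3.44 ± 0.13, from 20.3 and 105 TPM, of which 0.17 and 87.0 TPM were coding. The 6 ATPases spanned 26.4-fold in the first library and 2.01-fold in the second. By coding TPM they ran from 0.17 to 109 TPM in the first library and from 52.1 to 87.0 TPM in the second. Of the 6, 3 were called for the second library and 1, Psmc6, for the first, against 40.2% and 27.4% of all genes. Among the non-ATPases of the base, the scaffold Psmd1 had 34.4 and 44.2 TPM, Psmd2 had 6.48 and 63.0 TPM, and the ubiquitin receptor Psmd4 had 1.48 and 87.9 TPM. Psmd2 and Psmd4 were called higher in the second library, with log2 ratios of 2.29 ± 0.07 and 4.43 ± 0.19, and Psmd1, at -0.91, was under 2-fold.

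The lid removes the ubiquitin chain before the substrate enters the core. Psmd14, the metalloprotease that makes this cut, had the highest mean level of the 8 lid genes, with 130 TPM in the first library and 64.0 TPM in the second. By coding TPM Psmd8, at 9.06 and 107 TPM, had the higher mean. Psmd14 then had 33.5 and 49.5 TPM, so its order in TPM turned. On scaled counts its coding transcript Psmd14-201 still had a negative log2 ratio, -0.71. The processed transcript Psmd14-202 held 68.1% of its TPM in the first library and 20.5% in the second. Psmd14 had the lowest log2 ratio of the lid, -1.44 ± 0.05, over all its transcripts. Psmd11 had the lowest mean, with 21.1 and 40.2 TPM, and Psmd3 the highest log2 ratio, 4.96 ± 0.20, from 2.72 and 69.3 TPM. The lid spanned 48.0-fold in the first library and 3.36-fold in the second, or 15.1-fold and 2.88-fold by coding TPM. Of its 8 genes, 3 were called for the second library and 2, Psmd12 and Psmd14, for the first, against 40.2% and 27.4% of all genes.

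The caps held the most abundant member. Psme2, the beta subunit of the interferon-inducible PA28 activator, had 75.5 TPM in the first library and 419 TPM in the second, with a log2 ratio of 2.10 ± 0.05. Its partner Psme1 had 61.4 and 221 TPM, with 1.81 ± 0.06. By coding TPM Psme2 had 7.97 and 366 TPM, and Psme1 had 23.9 and 203 TPM. Both were called higher in the second library, and they are neighbours at chr14:55587441-55591113 and chr14:55578123-55581529 (mm10). The nuclear PA28 gamma gene Psme3 had nearly the same TPM in both libraries over all its transcripts, 53.4 and 55.9, and its log2 ratio of -0.58 was under 2-fold. By coding TPM it had 32.4 and 54.7 TPM, and the processed transcript Psme3-203 held 39.3% and 0.78% of its TPM. Psme2b, a copy of Psme2 without introns, had 1.57 and 2.92 TPM on estimated counts of 30.1 and 36.2 that were not whole, so reads may have been divided between the copies. Psme4, which encodes PA200, had 30.6 and 23.0 TPM and was called higher in the first library (log2 ratio -1.66 ± 0.03). Psmf1, the inhibitor PI31, had 2.12 and 19.8 TPM and a log2 ratio of 1.14 ± 0.11.

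The assembly chaperones were at under 10 TPM in the first library and under 20 TPM in the second. Those of the core had 5.56 and 12.3 TPM for Psmg1, 7.15 and 13.2 TPM for Psmg2, 0.02 and 13.03 TPM for Psmg3, and 1.31 and 13.4 TPM for Psmg4. In the second library the 4 genes stood within 1.09-fold of each other. Psmg3 rested on 1 count in the first library against 177 in the second, a log2 ratio of 6.25 with a counting interval from 4.34 to 12.1, and Psmg4 on 12 against 87. Those of the base had 8.18 and 16.6 TPM for Psmd5, 0.90 and 9.83 TPM for Psmd9, and 8.77 and 18.03 TPM for Psmd10. Psmg3, Psmg4 and Psmd9 were called higher in the second library. Psmc3ip, the recombination factor, had 3 and 37 counts (0.15 and 1.98 TPM).

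Counted over all roles, 25 of the 48 members tested (52.1%) were called higher in the second library, where 40.2% of all genes tested were. In the other direction 5 members (10.4%) were called higher in the first library, namely Psma3, Psmc6, Psmd12, Psmd14 and Psme4, against 27.4% of all genes. The remaining 18 were under 2-fold, and Psma8 and Psmb11 were not tested. The median log2 ratio was 1.12 over the members and 0.26 over all genes tested, a gap of 0.86. With total counts Psmc6 alone was called higher in the first library, against 10% of all genes. With upper quartiles 10 members (20.8%) were, against 36.8% of all genes.

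The members' log2 ratios followed the GC content of their transcripts, as did those of other genes. Across the 48 members Pearson's r was 0.826 and Spearman's rho 0.878, and across 15081 nuclear genes r was 0.80 and rho 0.855, where all points share the same 2 libraries. The 12 members under 46% GC had a median log2 ratio of -0.62 and median levels of 59.0 and 83.5 TPM. The 22 members from 46% to under 52% GC had a median of 0.49 and median levels of 14.7 and 55.8 TPM. The 14 members at 52% GC or more had a median of 4.43, with values from 1.81 to 7.64, and median levels of 2.15 and 96.4 TPM. Over all genes tested the medians of the same classes were -1.59, -0.13 and 3.09, each lower than that of the members. The median level of the members thus fell from class to class in the first library, and had no such order in the second.

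**Figure D3:**
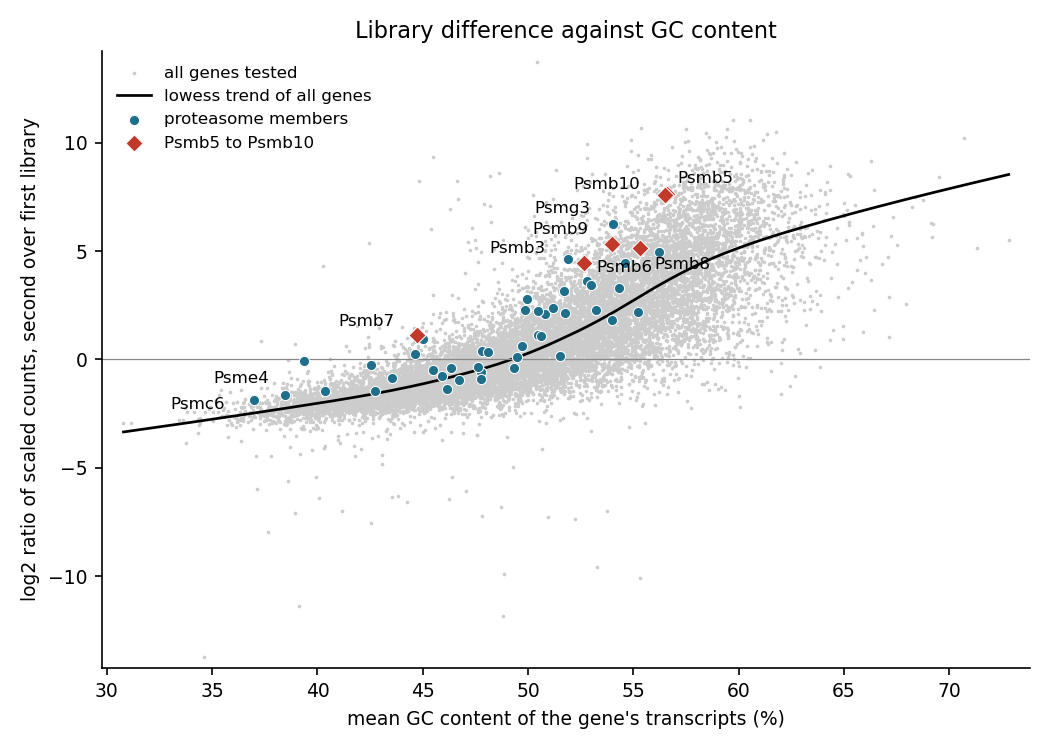
Log2 ratio of scaled counts, second over first library, against the mean GC content of each gene's transcripts, for all genes tested (grey), the 48 members tested (blue) and Psmb5 to Psmb10 among them (red). The line is the lowess trend of all genes. Members rise along the trend, from -1.89 for Psmc6 to 7.64 for Psmb5, and most lie above it.

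The constitutive core, a complex with equal numbers of each of its 14 subunits, showed the same contrast among its own genes. The SD of log2(TPM + 1) among Psma1 to Psma7 and Psmb1 to Psmb7 was 2.28 in the first library and 0.37 in the second, or 2.44 and 0.65 by coding TPM. The correlation of that value with GC content over the 14 genes was -0.873 in the first library and -0.199 in the second. Within the lid the same correlation was -0.941 over 8 genes in the first library and 0.443 in the second.

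**Figure D4:**
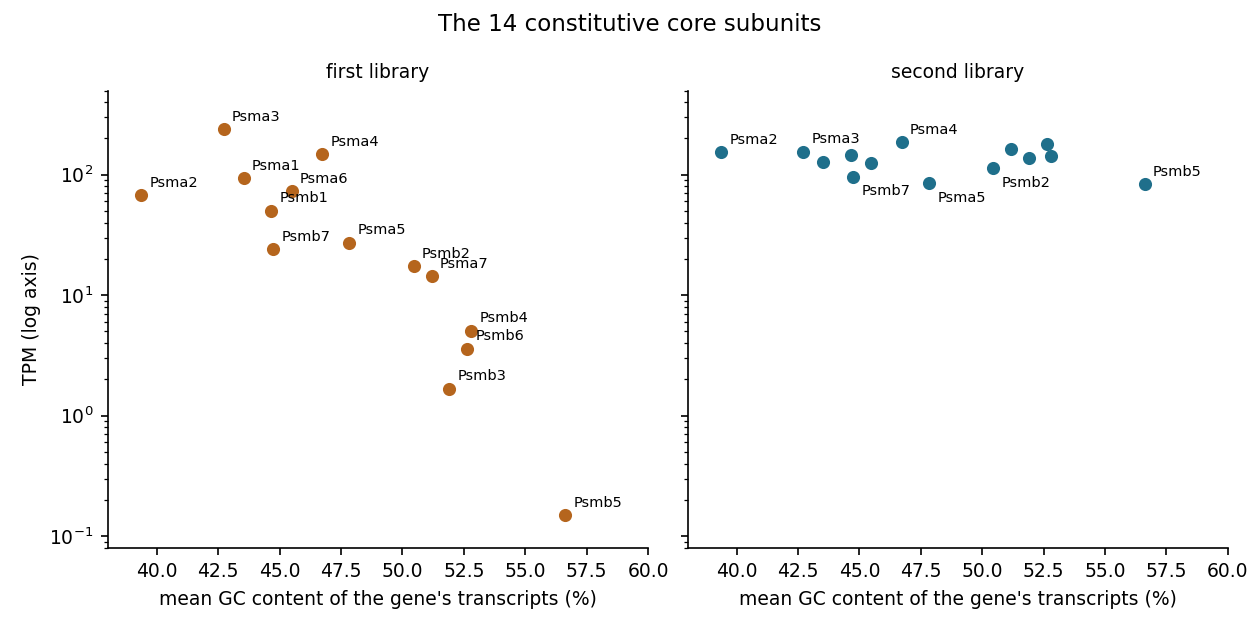
TPM (log axis) of the 14 constitutive core subunits against the mean GC content of their transcripts, in the first library (left, all genes labelled) and the second (right, some labelled). TPM falls from 240 for Psma3 to 0.15 for Psmb5 in the first library, and all 14 lie between 83.0 and 185 in the second.

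After removal of the GC trend, 23 of 48 members (47.9%) were called higher in the second library, against 17.6% of all genes, and 0 were called higher in the first library, against 17.4%. Of the 25 called without the correction, 19 kept the call, and Psma2, Psmb1, Psmc2 and Psmd10 joined them. Psmc4, Psmd8, Psmd13, Psme1, Psmf1 and Psmg4 fell under 2-fold, and of these Psme1 (-0.32) and Psmg4 (-0.67) moved under 0. All 5 members called for the first library lost the call, and Psma3, Psmc6, Psmd14 and Psme4 moved to the other side of 0. The corrected median was 0.89 over the members and -0.01 over all genes, and 40 of 48 members lay above 0 where 49.5% of all genes did. The SD of the members' log2 ratios was 2.47 before and 1.28 after the correction. Corrected values ran from -0.79 for Psmg1 to 4.08 for Psmg3. What else differed between the libraries besides GC content was not tested.

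Transcripts of one gene also differed from each other between the libraries. Coding transcripts held 67.8% of the members' TPM in the first library and 89.7% in the second, against 84.7% and 92.1% over all nuclear protein-coding genes. Transcripts annotated for nonsense-mediated decay held 12.6% and 2.66% of the members' TPM, processed transcripts 10.2% and 0.989%, and retained-intron transcripts 9.24% and 5.53%. In 22 members the most counted coding and the most counted retained-intron transcript could both be compared between the libraries. The retained-intron form had the lower log2 ratio in 18 of them, by a median difference of -2.36, and the lower GC content in 18, with both in 16. No such count over all genes is given here, so whether the members differ from other genes in this cannot be said. The widest gap was in Psmd4, at 10.6 for the coding Psmd4-202 and 0.45 for the retained-intron Psmd4-204. There the retained-intron form has the slightly higher GC content (55.1% against 54.9%). Psmd4-202 was listed at 0 counts in the first library, so its ratio rests on the prior count. The coding Psmd4-201, with 25.9 and 600 counts, had a log2 ratio of 3.87. In Psma3 and Psme1 the retained-intron form has the lower GC content and yet the higher log2 ratio, by 1.22 and 2.18. Psme2 had the next widest gap, with a log2 ratio of 4.13 for the coding Psme2-208 and -3.26 for the retained-intron Psme2-206. Psmb4 went the other way, with 3.40 for its coding and 8.83 for its retained-intron transcript, and there the retained-intron form has the higher GC content. The retained-intron transcripts compared in Psmb4 and Psme1 were also listed at 0 counts in the first library.

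**Figure D5:**
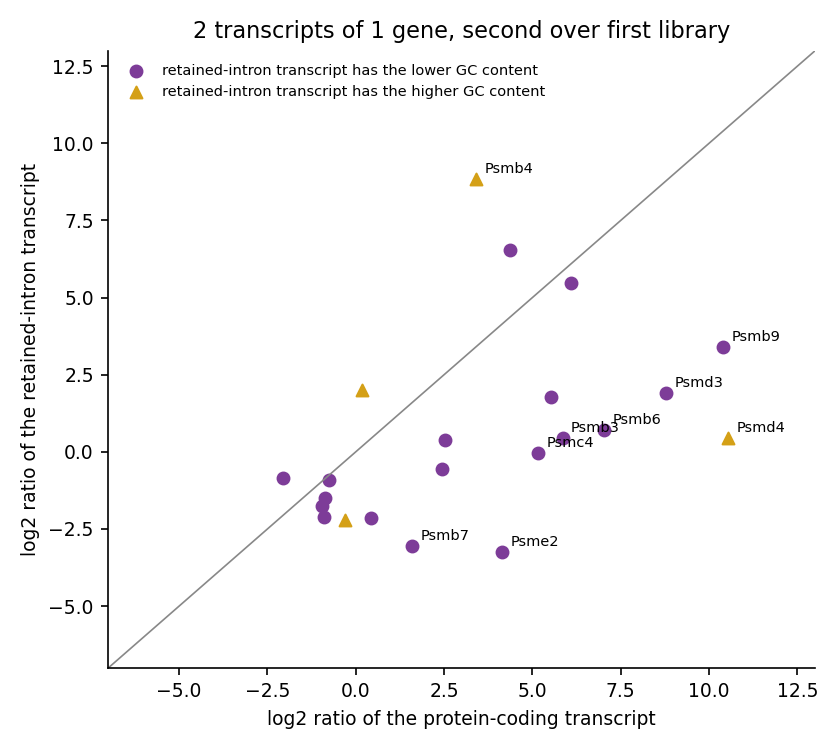
Log2 ratio (second over first library) of the retained-intron transcript against that of the coding transcript of the same gene, for 22 members. Circles mark genes whose retained-intron transcript has the lower GC content and triangles those where it has the higher. In 18 genes the point lies under the line of equal ratios.

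At 10 TPM or more in each library there were 25 members, of which 14 had a main transcript whose share differed by under 10 percentage points, and 11 one that differed by 10 or more. Taking 1 main transcript for each of these 25 genes, that of highest mean share, the widest difference outside Psmb5 to Psmb10 was in Psmd13, where the short coding transcript Psmd13-209 held 90.1% in the first library and was listed at 0 in the second. The level of Psmd13 is uncertain, and its deposited TPM bounds run from 33.7 to 128 and from 74.3 to 260. In the second library a transcript of 123 bases held 38.5% of its TPM on 1.9 expected counts. Coding transcripts held 34.5 of its 35.8 TPM in the first library and 41.9 of 125 TPM in the second. A processed pseudogene, Gm15542, overlaps Psmd13 on the same strand with 407 and 140 estimated counts. The counts of Psmd13 (595 and 1978) were whole, and whether reads were shared was not tested. The main coding transcript of Psmb2, Psmb2-201, held 8.56% and 96.9%. In Psmc3 the processed transcript Psmc3-204 held 89.8% and 1.69%. Psma2, Psma5, Psmb1, Psmc1, Psmc6 and Psmd7 were each assigned to a single transcript in both libraries.

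Genes that work next to the proteasome were compared with it. Their counts can be read against the 40.2% and 27.4% of all genes called for the second and the first library, and, with the GC trend removed, 17.6% and 17.4%. Of 10 further proteasome factors, 2 were called for the second library and 6 for the first, and with the GC trend removed 2 and 1 (median log2 ratio -1.42 before and 0.18 after). Pomp, the chaperone that completes the core, had 27.1 and 188 TPM and a log2 ratio of 1.54. The stress-induced Zfand5 had 69.9 and 42.7 TPM, the ubiquitin receptor Adrm1 had the highest ratio called (4.19) and the deubiquitinase Usp14 the lowest (-2.17). Of 6 genes for ubiquitin and its activating enzymes, 4 were called for the second library and 1 for the first, and with the GC trend removed 4 and 0. The ubiquitin gene Ubb had 10.8 and 1497 TPM, and the activating enzyme Uba6 had the lowest ratio called, -2.30. The median GC content was 43.3% in the first of these lists and 53.8% in the second.

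Class I antigen presentation receives the peptides that the immunoproteasome makes. Of 12 genes for peptide loading, 6 were called for the second library and 4 for the first, with a median log2 ratio of 1.28, and after GC correction 2 were called in each direction with a median of 0.13. The light chain B2m had 3845 TPM in the first library and 3005 TPM in the second, and the heavy chain H2-K1 had 49.8 and 1288 TPM. The highest ratio called was that of the peptide transporter Tap2 (8.79, from 0.02 and 36.5 TPM) and the lowest that of the thiol oxidoreductase Pdia3 (-2.03). Interferon gamma itself, Ifng, had 0 counts in both libraries. Of 18 further interferon pathway genes, 6 were called for the second library and 3 for the first, with a median log2 ratio of -0.05, and with the GC trend removed 2 and 3, with a median of -0.18. The receptor chain Ifngr1 had 71.6 and 99.5 TPM and the transcription factor Irf1, an activator of Psmb9, had 1.89 and 155 TPM. Isg15 was listed at 0 in the first library and had 45.1 TPM in the second, and the GTPase Gbp7 had the lowest ratio called (-1.98).

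Leukocytes express the immunoproteasome without stimulation, and the tissue held them. Of 15 leukocyte markers 9 were called for the second library and 3 for the first, against 40.2% and 27.4% of all genes. With the GC trend removed 5 and 0 were called, against 17.6% and 17.4% (median log2 ratio of the markers 1.33 before and 0.48 after). The summed TPM of the leukocyte markers was 518 and 891, or 0.0518% and 0.0891% of all TPM. No marker of the list was at 0 in both libraries. The pan-leukocyte marker Ptprc had 22.2 and 19.1 TPM. The plasma cell gene Jchain had 443 and 477 TPM and the lysozyme gene Lyz2 22.4 and 135 TPM. On scaled counts Ptprc (log2 ratio -1.72) and Jchain (-1.16) were called for the first library and Lyz2 (1.33) for the second. With the GC trend removed Ptprc was not called and Jchain was called for the second library (1.05). The complement gene C1qa of macrophages had the highest ratio called (6.05) and the B cell gene Ms4a1 the lowest (-2.32). In a bulk tissue, more cells of a type and more RNA per cell cannot be told apart, so Psmb8 to Psmb10 cannot be assigned to leukocytes or epithelium here, and the part of the leukocyte markers in the library difference was not tested. The tissue label was checked against 8 epithelial markers, all present, with Fabp2 at 3191 and 5248 TPM and Sis at 2598 and 1226 TPM. Of these, 3 were called higher in the second library, Lgals4 with the highest ratio (5.27), and 1, Sis, in the first (-2.29). Pancreatic acinar genes summed to 1953 and 9217 TPM, with 3 of 5 called higher in the second library, among them Cela2a (137 and 3441 TPM) and Ctrb1 (log2 ratio 6.22), while Amy2a5 had 1355 and 1821 TPM. Smooth muscle genes summed to 20.5 and 656 TPM, with all 4 called higher in the second library, among them Acta2 (10.1 and 227 TPM), Myl9 (log2 ratio 7.79) and Myh11 (2.46). With the GC trend removed the counts for the second and the first library were 3 and 2 for epithelium, 4 and 0 for acinar genes, and 3 and 0 for smooth muscle. These tissues also express proteasome genes, and their part in the members' values was not tested.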

How the data were processed

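Each library came with tables of genes and of transcripts in RSEM's format, per the file headers. Expected counts were deposited as estimates in which reads that match several genes were shared out, and they were rounded to whole numbers here. TPM was deposited as abundance per effective length. The deposited credibility bounds of TPM, a score of unstated level, were used as drawn error and to describe Psmd13, and the deposited isoform share is a transcript's percent of its gene's TPM. The assembly is mm10 and the annotation M4, per the submitters' deposited notes. The sources used here do not name the aligner, the strand setting of the counts or the software versions. Symbols, biotypes, positions, GC content (mean over a gene's transcripts) and sequences came from GENCODE M21 by identifier without version.

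Libraries were scaled by TMM (edgeR 4.0.16). Each gene with 20 or more counts was tested with a two-sided exact binomial test on that split, since no residual degrees of freedom were left for a quasi-likelihood fit. Counting SE is that of a log2 ratio of counts, and ± is counting SE unless SD is named. Without molecular identifiers, reads are not independent molecules, and intervals and limits cover counting error only. The GC trend was a lowess fit with a span of 0.3 (statsmodels 0.14.6). The test was tried on simulated Poisson counts with 200 genes changed and no GC trend, a setting unlike that of these libraries. DESeq2 1.42.0 gave alternative size factors. Base identity between subunits came from pairwise alignment of coding sequences.

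Members and gene lists were chosen with earlier results of these data known. Psmb5 to Psmb10 were named in full, other roles by all members or, above 4 members, by the extremes of mean TPM and log2 ratio, and each list by its 2 most abundant genes and its extreme calls, of which some are not reported here. Ddx4, Sycp3, Tnp1, Foxn1, Prss16, Ptprc and the transcripts of Psmb4 and Psme2 were named after their values were seen. Both libraries are technical replicates of 1 group, so no sample was compared with another condition.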

Additional observations from a re-analysis of the deposited data

How the results depend on the processing

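The count of 25 members higher in the second library stayed within 1.5 times of that value under every alternative run. It ran from 21 with GC and length trends removed (16.2% of all genes called) to 30 with total expected counts (51.3%). The count of 5 higher in the first library was 1 with total expected counts, where 10% of all genes were called. It was 10 with upper quartile scaling (36.8% of all genes) and 0 with the GC trend removed (17.4%). At a 1.5-fold limit it was 9 (34.5% of all genes). With GC and length trends removed it was 3 (17.4% of all genes), namely Psme2b, Psmg1 and Psmg4. The median log2 ratio of members, 1.12, was 1.96 with total expected counts, 0.62 with upper quartile scaling, 0.89 with the GC trend removed and 0.77 with GC and length trends removed. The gap to the median of all genes was 0.90 with the GC trend removed and 0.77 with both trends removed.

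The mean log2 of Psmb9 over Psmb6, -1.38, was -1.11 on expected counts without length and -0.13 with protein-coding transcripts only. Leaving out 1 library gave log2 values from -3.16 to 0.22 for the sums of the 3 subunits, from -5.99 to 0.89 for Psmb10 over Psmb7, from 1.10 to 2.98 for Psmb8 over Psmb5, and from -1.57 to -1.20 for Psmb9 over Psmb6. It gave shares of members from 0.153% to 0.435% of TPM and SDs among core subunits from 0.37 to 2.28. The positive values of the sums and of Psmb10 over Psmb7 are those without the first library, so these directions are decided by which library is used. The other alternatives for the sums, the pairs, the share and the SD moved each mean by less than its SD over the libraries, which is wide with 2 libraries and says little about stability. Alternatives restricted to protein-coding transcripts, with a length trend, or without Psme2b and Psmc3ip were chosen after seeing the data. No paired analysis was possible because both libraries belong to 1 group.

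In the first library Psmb5, Psmg3 and Psmc3ip rest on 3 counts or fewer, so their ratios have wide counting intervals.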

Other observations

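Genes upstream and downstream of the proteasome differed between the libraries in both directions. Of 9 shuttle and segregase genes, which carry ubiquitin-tagged proteins to the proteasome, 4 were called for the second library and 2 for the first, and with the GC trend removed 2 and 3. The segregase Vcp had 27.4 and 131 TPM and the shuttle factor Rad23b 50.3 and 57.5 TPM, and the lowest log2 ratio called was -1.42, for Rad23b. Of 8 tested regulators of proteasome genes, 4 were called for the second library and 2 for the first. After GC correction the counts were 0 and 1, the 1 being Keap1 (-1.40), which was called for the second library before it. Nfe2l2 had 153 and 201 TPM and Stat3 5.12 and 51.1 TPM, and the log2 ratios called ran from -1.38 for Ngly1 to 2.92 for Keap1. Of 8 peptidases that shorten proteasome products or other peptides, 2 were called for the second library and 1, Tpp2, for the first (-1.88). With the GC trend removed the counts were again 2 and 1 but the genes differed. Prep and Thop1 were then called for the second library and Anpep for the first (-1.94), and Tpp2 lost its call. The brush border aminopeptidase Anpep had 195 and 1555 TPM and Lap3 70.5 and 219 TPM, and Thop1 was listed at 0 in the first library and had 7.37 TPM in the second.

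Other genes overlap 24 of the members, 10 on the same strand and 19 on the opposite strand, some on both. Psmb9 overlaps the peptide transporter gene Tap1 on the opposite strand, which had 139 and 1658 counts, and Psmb7 overlaps Nek6, which had 1093 and 2375. Without a stated strand setting, reads of such neighbours may not be told apart.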
